A study of Homo sapiens with 16 samples.

Results

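The genes described are 8 transcription factors of the adrenergic state of neuroblastoma: PHOX2A, HAND2, GATA2, GATA3, ISL1, TFAP2B, TBX2 and INSM1. They were chosen by name, as the rows of the deposited count table with these gene symbols. All 8 were found among the 63187 genes of the table, and all 8 passed the filter on low counts that left 19530 genes for testing. RNA-seq was run on 16 libraries. All were made from SK-N-BE(2) cells, an established human line from a neuroblastoma in which MYCN is amplified. Each of 4 groups held 4 libraries, 1 from each of 4 labelled batches, so that libraries with the same replicate number shared a batch. WT cells were labelled wild type, and the other 12 libraries came from cells transfected with a form of HIF-2α, the oxygen-regulated transcription factor encoded by EPAS1. FL was the full-length protein, and NCTAD and cIDR were the forms that the study design writes as ΔN-CTAD and Δc-IDR. Column names in the deposited tables differ from the sample titles: they name the line BE2c, mark the FL libraries as WT and the WT libraries as CTRL, and write NTAD for NCTAD. Groups here follow the titles, and the table's names were matched through the library names in the labels. All groups grew at 21% oxygen in medium with 10% serum. The labels used here give no vector, no time after transfection and no treatment of the WT cells, so an effect of transfection and one of HIF-2α cannot be told apart. All libraries came from 1 cell line, and nothing in the labels says that libraries of a group were separate cultures, so p-values measure the spread between these libraries, which may be technical. In bulk RNA, fewer cells of a type and less RNA per cell cannot be told apart.

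Adrenergic neuroblastoma cells resemble the precursors of sympathetic neurons and chromaffin cells. Their identity is held by a small set of transcription factors that bind together at large enhancers, including those of their own genes, which is called a core regulatory circuit. PHOX2A is a homeodomain factor of noradrenergic neurons, HAND2 is a basic helix-loop-helix factor, GATA2 and GATA3 are zinc finger factors, and ISL1 is a LIM-homeodomain factor. TFAP2B is an AP-2 factor, TBX2 is a T-box repressor, and INSM1 is a zinc finger repressor of neuroendocrine cells. Among the known targets of such factors are the genes of noradrenaline synthesis, TH and DBH.

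The 3 promoters below are shown because HIF-2α binds DNA at a short core sequence, ACGTG or GCGTG, and because, of the 6 factors with a RefSeq promoter entry, they were the ones whose 250 bases before the start overlapped no exon of their own gene. The sequences are from RefSeq on GRCh38.p14, written 5′ to 3′ on the strand of the gene. Capitals mark ACGTG or GCGTG, the GATA motifs AGATAA or TGATAA, and the homeodomain core TAATTA, on either strand.
HAND2, chr4:173530230-173530479, minus strand: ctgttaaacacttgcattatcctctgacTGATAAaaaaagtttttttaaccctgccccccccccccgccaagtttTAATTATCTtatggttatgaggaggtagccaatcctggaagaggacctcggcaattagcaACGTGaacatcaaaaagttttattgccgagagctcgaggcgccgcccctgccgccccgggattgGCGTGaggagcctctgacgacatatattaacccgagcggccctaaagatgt
GATA2, chr3:128488531-128488780, minus strand: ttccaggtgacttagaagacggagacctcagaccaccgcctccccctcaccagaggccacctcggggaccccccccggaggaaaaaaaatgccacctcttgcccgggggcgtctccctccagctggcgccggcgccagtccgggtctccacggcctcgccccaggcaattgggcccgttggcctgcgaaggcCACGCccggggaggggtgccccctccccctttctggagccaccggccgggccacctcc
PHOX2A, chr11:72244177-72244426, minus strand: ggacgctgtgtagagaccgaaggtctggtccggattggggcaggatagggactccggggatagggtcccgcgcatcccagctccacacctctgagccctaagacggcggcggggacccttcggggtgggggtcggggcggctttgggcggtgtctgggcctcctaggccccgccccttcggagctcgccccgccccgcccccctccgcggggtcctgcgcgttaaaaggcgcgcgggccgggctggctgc
For each gene the RefSeq entry nearest to the start of a principal transcript in GENCODE 29 was taken. GATA2 has 2 entries, and the windows shown for GATA2 and PHOX2A lie inside the annotated spans of these genes, so starts further upstream are annotated and were not searched. The HAND2 window held ACGTG with its first base at -115 and GCGTG at -51, counted from the start that the entry gives. It also held GATA motifs at -222 and -172 and TAATTA at -175, the last overlapping the GATA motif at -172. In the GATA2 window the only capitals, at -58, are GCGTG on the other strand. The PHOX2A window had none of these motifs. Of 35116 promoter windows of the same length, 43.2% held ACGTG or GCGTG, 14.6% held a GATA motif and 4.35% held TAATTA. In the HAND2 window 109 bases overlap an exon of HAND2-AS1, the divergent transcript. These matches describe letters and not binding.

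The libraries held 38.6 to 56.1 M (mega) counts. EPAS1 read as labelled: it had 621 to 1511 counts in the 4 WT libraries and 65359 to 282023 in the 12 transfected ones. Batch 2 stood apart from the other batches in all groups: 53.9% of tested genes were called between batch 2 and the mean of the other 3 batches. Adrenergic markers were present, with DBH at 212 ± 33.1 TPM (SD, n = 12) in batches 1, 3 and 4, although TH was low, at 2.07 ± 0.73 TPM (SD, n = 12). Of 23 mesenchymal markers, 15 passed the filter on low counts; the highest in these batches were TWIST1 at 92.8 ± 10.1, TEAD1 at 38.6 ± 10.3, IL6ST at 34.2 ± 6.28 and VIM at 20.6 ± 5.44 TPM (SD, n = 12). Among those that did not pass, PRRX1, TWIST2, RUNX1, RUNX2, FOSL1, MEOX1 and MEOX2 had at most 10 counts in any library. SOX10 of Schwann-type cells reached at most 4 counts. Of 10 markers of other cell types, the fibroblast and pericyte genes PDGFRB, LUM and DCN were at 22.5 ± 3.64, 18.5 ± 2.53 and 11.2 ± 2.47 TPM (SD, n = 12). VWF, CDH5, CD14 and EPCAM reached at most 77, 49, 84 and 43 counts in any library, and PECAM1, PTPRC and CD3E at most 3.

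Per transcript length (TPM, transcripts per 1 M), the 8 factors spanned a wide range. GATA2 was highest, at 776 ± 100.4 TPM (SD, n = 16). PHOX2A followed at 539 ± 29.5 TPM and HAND2 at 520 ± 67.9 TPM. These neighbours did not differ beyond their spread, and PHOX2A was above HAND2 in 10 of 16 libraries. A lower tier held GATA3 at 91.7 ± 19.3 TPM, TBX2 at 73.7 ± 17.1 TPM, TFAP2B at 61.8 ± 8.77 TPM and ISL1 at 53.1 ± 4.27 TPM, each within the spread of its neighbour over all libraries, although GATA3 was above TBX2 in 16 of 16. INSM1 was far below the others, at 2.14 ± 2.62 TPM, a mean that joins 2 levels. The order changed in batch 2. HAND2 was above PHOX2A in all 4 libraries of batch 2, and TFAP2B was above TBX2 in all 4, whereas TBX2 was above TFAP2B in all 12 other libraries. Summed over the 8 genes, the level was 1963 to 2062 TPM in batch 2 and 2033 to 2319 TPM elsewhere.

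The first comparison asked whether any form of HIF-2α moved the core factors, within batches and over all libraries. No factor passed the test between any 2 groups. Values are in CPM, counts per 1 M after scaling by TMM, and are listed in the order of batches 1 to 4. The zinc finger factor GATA2 held 1494, 1163, 1732 and 1488 CPM in WT and 1494, 1268, 1593 and 1526 CPM in FL. In NCTAD it held 1679, 1282, 1617 and 1659.5 CPM, and in cIDR 1562, 1101, 1621 and 1524 CPM. The groups overlapped, and the library of batch 2 was lowest in each group. Its relative GATA3, which acts in sympathetic neuron development, held 164, 98.5, 191 and 168 CPM in WT and 153, 103, 191 and 189 CPM in FL. GATA3 held 162, 93.2, 178 and 174 CPM in NCTAD and 181, 109.6, 191 and 171 CPM in cIDR. Again the groups overlapped and batch 2 was lowest in each.

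PHOX2A, which activates the DBH promoter, was the steadiest of the 8. Its WT libraries held 528, 525, 548 and 462 CPM and its FL libraries 503, 538, 495 and 534 CPM. The NCTAD libraries held 581, 532, 491 and 485 CPM and the cIDR libraries 582, 514, 535 and 492 CPM. No batch and no group stood apart. HAND2, which works with PHOX2A on noradrenergic genes, held 691, 768, 614 and 578 CPM in WT and 795, 805, 595 and 542 CPM in FL. It held 749, 769, 606 and 624 CPM in NCTAD and 726, 849.5, 602 and 600.4 CPM in cIDR. Batches 1 and 2 were above batches 3 and 4 in each group, and the groups overlapped.

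ISL1, needed for sympathetic neuron differentiation, held 90.8, 75.5, 90.4 and 87.6 CPM in WT and 90.0, 73.0, 88.1 and 90.0 CPM in FL. It held 95.3, 69.4, 83.7 and 89.3 CPM in NCTAD and 93.5, 80.5, 93.8 and 90.0 CPM in cIDR. Outside batch 2 the 12 values lay close together, and batch 2 was lowest in every group. TFAP2B, a neural crest factor, held 152, 177, 166 and 147 CPM in WT and 137, 188, 161 and 162 CPM in FL. It held 151, 181, 164 and 163 CPM in NCTAD and 156, 177, 157 and 145 CPM in cIDR. Here batch 2 was highest in every group.

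Of the repressors, TBX2 held 197, 125, 242 and 220.3 CPM in WT and 207, 116, 221 and 195 CPM in FL. It held 192, 103, 217 and 207 CPM in NCTAD and 207, 122, 223 and 220.4 CPM in cIDR. The 4 libraries of batch 2 lay well below the other 12, whatever the group. INSM1 held 1.29, 10.5, 1.52 and 1.34 CPM in WT and 1.60, 12.8, 1.25 and 1.73 CPM in FL. It held 1.46, 13.2, 1.39 and 1.23 CPM in NCTAD and 1.11, 13.0, 1.33 and 1.08 CPM in cIDR. Batch 2 was the only batch in which INSM1 was above 2 CPM, with 565 to 741 counts per library against 41 to 87 in the others.

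**Figure D1:**
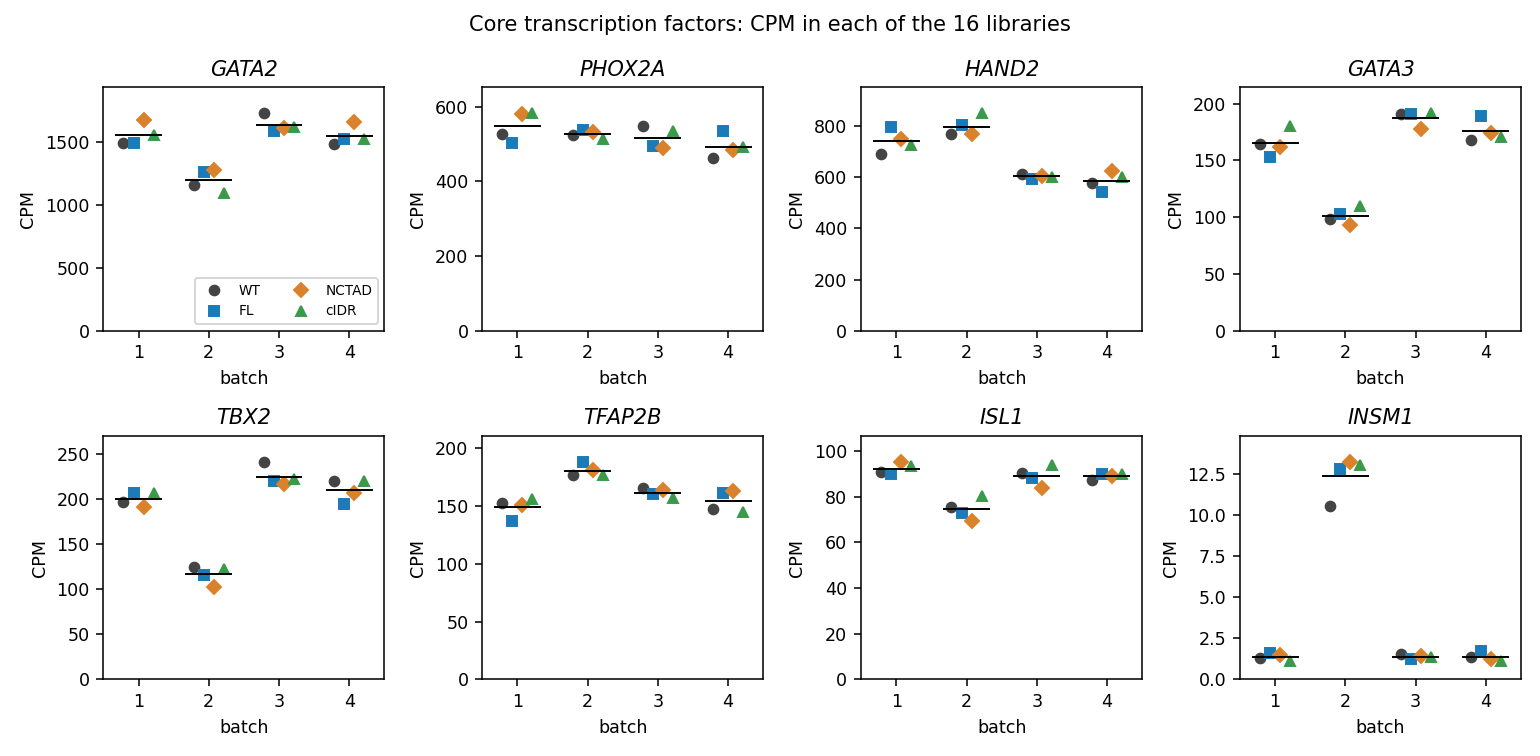
Level of each core transcription factor in CPM (y axis, from 0) in the 16 libraries by batch (x axis); symbols show the 4 groups and black lines the mean of the 4 libraries of a batch. The symbols of a batch lie together, while batch 2 lies apart for INSM1, TBX2 and GATA3.

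Of the 8 factors, 0 passed an adjusted p under 0.05 in each of the 6 comparisons between groups by edgeR's quasi-likelihood test with group as the only term, and 0 had an unadjusted p under 0.05, where 1.14%, 1.42% and 1.37% of all tested genes did in FL, NCTAD and cIDR against WT, 0.886% in NCTAD against FL, 0.906% in cIDR against FL, 0.609% in cIDR against NCTAD and 0.845% in any group. The background was as sparse: 0.0102% of all tested genes were called in FL against WT, 0.0256% in NCTAD against WT, 0.0102% in cIDR against WT, and 0% in each of the 3 comparisons among constructs. In the test of any difference between the 4 groups, 0.0102% of genes and 0 of the 8 factors were called. DESeq2 called 0 of the 7 factors for which it gave a p-value; it gave none for INSM1 in these tests, and in any group it called 0.113% of all tested genes. The 48 fitted values ranged from -0.13 to 0.24 on the log2 scale.

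For each factor the comparison with the smallest p was as follows. Against NCTAD, cIDR differed by -0.10 ± 0.14 log2 (SE) for GATA2, 0.10 ± 0.25 for GATA3, 0.08 ± 0.10 for ISL1 and -0.05 ± 0.10 for TFAP2B. Against WT, cIDR differed by 0.07 ± 0.15 for HAND2 and 0.04 ± 0.08 for PHOX2A. TBX2 differed by -0.13 ± 0.26 in NCTAD against WT, and INSM1 by 0.24 ± 1.09 in FL against WT. Every adjusted p of these values rounded to 1. The library of batch 2 decided several of them. Without the batch 2 library of FL the INSM1 value turned to -1.27, without that of WT it was 1.65, and without any 1 of the WT libraries of the other batches it lay between -0.04 and -0.02. Without the NCTAD library of batch 2 the TBX2 value was 0.07 and the GATA3 value -0.07. Without the cIDR library of batch 2 the HAND2 value was -0.05 and the GATA2 value 0.01.

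With the batch in the model as a replicate block, the spread fell and small differences became measurable, but 0 of the 8 factors were called in any comparison; the smallest adjusted p over the 48 values was 0.629 (edgeR). The block called 0.102% of all genes in FL against WT, 0.456% in NCTAD against WT, 0.486% in cIDR against WT, 0% in NCTAD against FL, 0.0307% in cIDR against FL, 0.00512% in cIDR against NCTAD and 0.425% in any group. Leaving INSM1 aside, the 95% intervals of the blocked values reached at most 0.25 log2 units from 0, a 1.19-fold change. For INSM1, with its low counts, they reached 0.54, or 1.46-fold. By edgeR with the block, 2 of the 48 values had an unadjusted p under 0.05, both of TBX2. Among all tested genes this share was 5.11%, 5.96% and 5.45% in FL, NCTAD and cIDR against WT, 3.69% in NCTAD against FL, 3.68% in cIDR against FL, 2.15% in cIDR against NCTAD and 4.19% in any group. TBX2 differed by -0.14 ± 0.05 log2 in NCTAD against WT (SE, edgeR adjusted p = 0.629), with differences of -0.04, -0.29, -0.16 and -0.09 in batches 1 to 4. In cIDR against NCTAD it differed by 0.12 ± 0.05 (SE). Neither passed the adjustment over all genes. DESeq2 with the block gave unadjusted p of 0.0049 and 0.024 for these TBX2 comparisons. In cIDR against NCTAD it also gave 0.038 for GATA2 and 0.049 for GATA3. None of these passed the adjustment, and the smallest adjusted p among them was 0.327 (DESeq2), for TBX2 in NCTAD against WT.

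Other genes of the adrenergic programme give a scale for these values. Among 21 further adrenergic transcription factors, 19 were tested, and 0 were called between groups by edgeR with or without the block. In the test of any group, 2 had an unadjusted p under 0.05. Of all tested genes, 0.845% did so in that test without the block and 4.19% with it. DESeq2 with the block called 1 of the 19 in that test, where it called 0.973% of all tested genes. In NCTAD against WT it called 2 of the 19, where it called 0.86% of all tested genes. The 15 cofactors and the 8 tested paralogues also had 0 called by edgeR in both fits and by DESeq2 with the block. Of 17 adrenergic effector genes, edgeR without the block called 0 in the test of any group, with 2 at an unadjusted p under 0.05. With the block it called 5, where it called 0.425% of all tested genes. These were TH and DBH, the tyrosine and dopamine hydroxylases, DDC, the decarboxylase between them, SLC18A1, a vesicular amine transporter, and DLK1, a chromaffin marker. With the block and without batch 2, DBH and SLC18A1 were called and TH, DDC and DLK1 were not. In NCTAD against WT the blocked values were 1.27 ± 0.17 log2 for TH (SE, edgeR adjusted p = 0.0022), 0.61 ± 0.07 for DBH, 0.32 ± 0.05 for DDC, 0.59 ± 0.08 for SLC18A1 and 0.57 ± 0.08 for DLK1. Counted per construct with the block, 1 effector rose in FL, 5 rose in NCTAD and 4 rose in cIDR against WT, and 0 fell. Of all tested genes 0.0717% rose in FL, 0.42% in NCTAD and 0.456% in cIDR, and 0.0307%, 0.0358% and 0.0307% fell. These comparisons share the WT libraries. The difference between effectors and core factors was not tested.

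**Figure D2:**
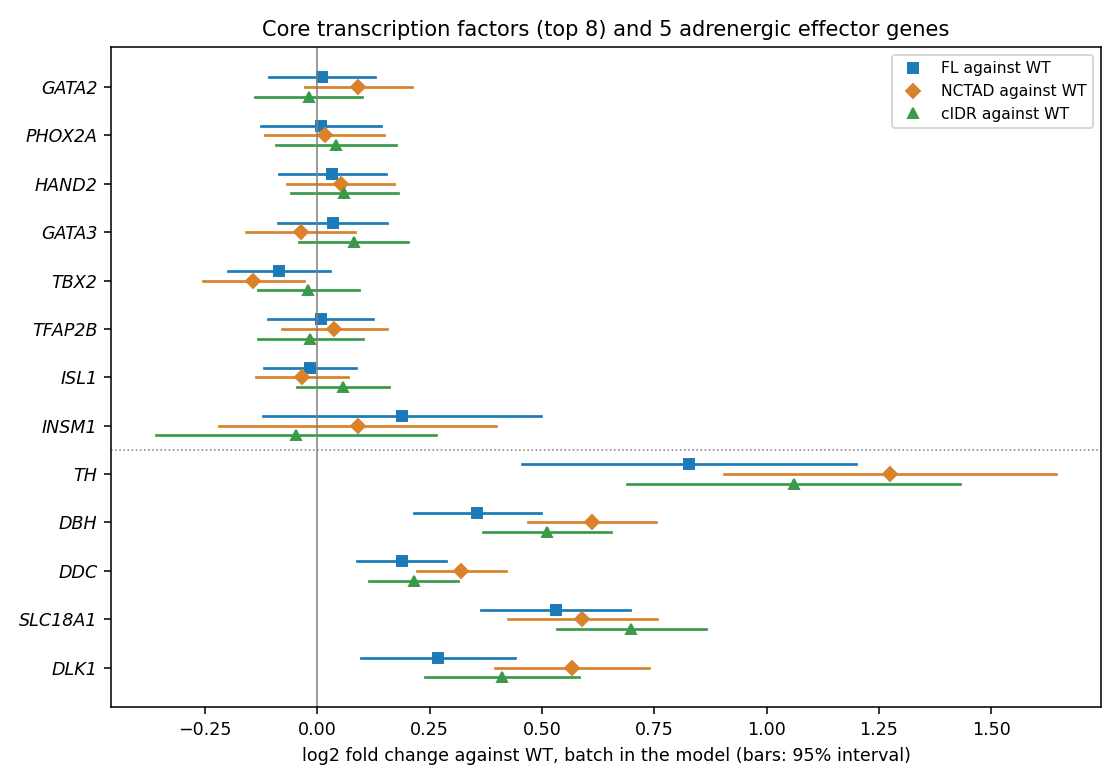
Log2 fold change of each construct against WT (x axis) with the batch in the model, for the 8 core factors (above the dotted line) and 5 effector genes chosen because they were called (below it); bars are 95% intervals. The bars of the core factors, INSM1 aside, stay within 0.25 of 0, while TH in NCTAD lies at 1.27.

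The second comparison set batch 2 against batches 1, 3 and 4, with group and batch in the model, since each batch holds 1 library of each group. Batch 2 was singled out from earlier results of these data. The labels name it only by number, so what else set it apart cannot be told apart from the batch, and the p-values rest on libraries while batch 2 is a single batch. In batch 2, INSM1, HAND2 and TFAP2B rose and TBX2, GATA3, GATA2 and ISL1 fell. Thus 7 of the 8 factors were called, against 53.9% of all tested genes (27.7% higher, 26.1% lower). The share of rises among all called genes was 51.5% here, 50.0% with size factors by the median of ratios, 64.2% on log2(TPM + 1) and 64.4% on log2(TPM + 0.1). In this contrast each of the 7 factors kept its direction and its call under every alternative run. In the test of any difference between the 4 batches the same 7 were called, against 53.1% of all genes, and on log2(TPM + 0.1) 6 were called.

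The change in INSM1 was the largest of the 8. Its mean was 12.4 ± 1.26 CPM (SD, n = 4) in batch 2 and 1.36 ± 0.19 CPM (SD, n = 12) elsewhere, a log2 fold change of 3.19 ± 0.10 (SE, edgeR adjusted p = 6.11e-12) or 9.11-fold. On log2(TPM + 1), which understates the change of low genes, the difference was 2.16. Only 0.44% of all tested genes changed as far in either direction. Within groups the log2 difference was 2.89 in WT cells and 3.04, 3.24 and 3.43 in FL, NCTAD and cIDR. Even in batch 2, at 6.52 ± 0.59 TPM (SD, n = 4), INSM1 remained the least abundant of the 8.

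TBX2 and GATA3 fell most. TBX2 averaged 117 ± 9.93 CPM (SD, n = 4) in batch 2 and 212 ± 14.2 CPM (SD, n = 12) elsewhere, a log2 change of -0.86 ± 0.05 (SE, edgeR adjusted p = 1.32e-09). GATA3 averaged 101 ± 6.94 CPM (SD, n = 4) against 176 ± 12.9 CPM (SD, n = 12), a change of -0.80 ± 0.05 (SE, edgeR adjusted p = 6.63e-09). Both fell in 4 of 4 groups, by 0.81 to 0.99 for TBX2 and by 0.72 to 0.88 for GATA3. Of all tested genes, 12.4% changed as far as TBX2 and 14.3% as far as GATA3.

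The other called factors moved less. GATA2 averaged 1204 ± 86.7 CPM (SD, n = 4) in batch 2 against 1583 ± 80.9 CPM (SD, n = 12), a log2 change of -0.40 ± 0.05 (SE, edgeR adjusted p = 4.78e-06). ISL1 averaged 74.6 ± 4.70 CPM against 90.2 ± 3.09 CPM, a change of -0.28 ± 0.04 (edgeR adjusted p = 3.62e-05). TFAP2B averaged 181 ± 5.42 CPM against 155 ± 8.81 CPM, a change of 0.22 ± 0.04 (edgeR adjusted p = 0.00061). Shifts of this size were common, since 37.6%, 52.2% and 60.3% of all tested genes changed as far as GATA2, ISL1 and TFAP2B. For 6 factors the 4 libraries of batch 2 did not overlap the other 12, with TFAP2B and INSM1 above and GATA2, GATA3, ISL1 and TBX2 below. Over all tested genes, 14.4% lay wholly above and 14.6% wholly below.

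HAND2 rose by 0.32 ± 0.04 log2 in batch 2 (SE, edgeR adjusted p = 2.86e-05), from 643 ± 77.6 CPM (SD, n = 12) to 798 ± 38.5 CPM (SD, n = 4), but the libraries overlapped. Batch 1 was close to batch 2: the difference of 0.11 ± 0.06 had an edgeR adjusted p of 0.128, where 45.8% of all genes were called. Batches 3 and 4 were lower than batch 1 by -0.29 ± 0.06 and -0.34 ± 0.06 (edgeR adjusted p = 0.00433 and 0.00233), where 14.1% and 10.1% of all genes were called. HAND2 was thus split between batches 1 and 2 and batches 3 and 4. GATA3 also differed between batches 3 and 1, by 0.19 ± 0.06 (edgeR adjusted p = 0.0428). PHOX2A did not pass, at 0.02 ± 0.05 (edgeR adjusted p = 0.716), with a 95% interval from -0.08 to 0.13.

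**Figure D3:**
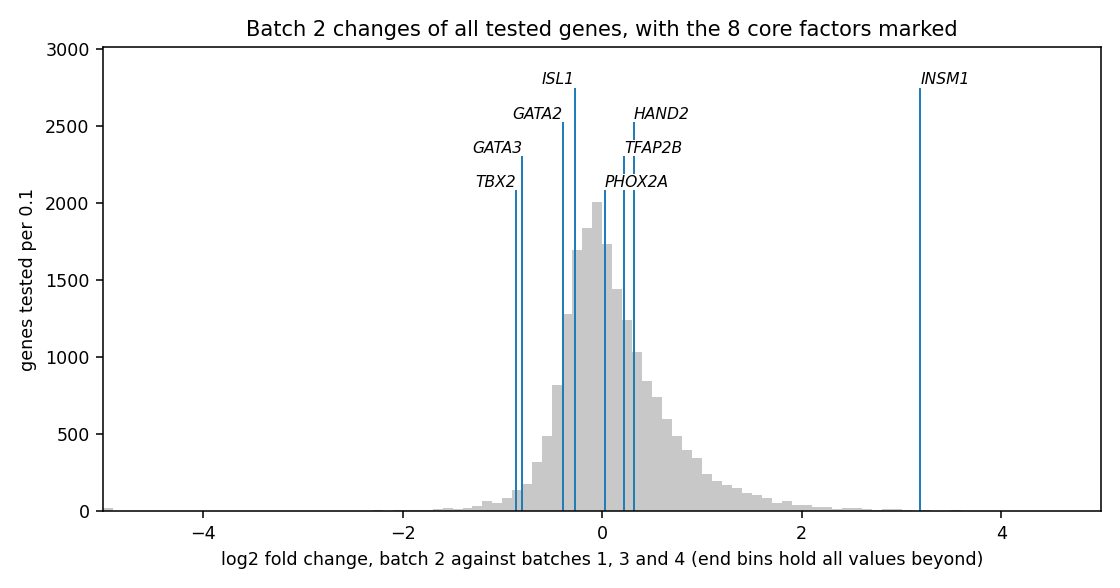
Number of tested genes (y axis) by log2 fold change of batch 2 against batches 1, 3 and 4 (x axis, bins of 0.1), with blue lines at the 8 core factors. INSM1 at 3.19 lies far in the right tail, TBX2 at -0.86 and GATA3 at -0.80 lie in the left shoulder, and PHOX2A lies at 0.02.

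Batch accounted for most of the variance of log2 CPM in 7 of the 8 factors. Its share was 98.4% for INSM1, 96.1% for TBX2, 95.9% for GATA3, 90.7% for HAND2, 86.7% for GATA2, 84.2% for ISL1 and 76.4% for TFAP2B. For PHOX2A it was 38.7%. Group accounted for 0.484% (INSM1) to 6.60% (ISL1). Over all tested genes the medians were 53.8% for batch and 7.85% for group.

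Paralogues of the core factors did not all move with them in batch 2. HAND1, the relative of HAND2, fell by -0.66 ± 0.06 log2 (SE, edgeR adjusted p = 2.41e-07), from 469 ± 55.3 TPM (SD, n = 12) to 309 ± 22.0 TPM (SD, n = 4), while HAND2 rose. The ratio of HAND2 to HAND1 in TPM was 1.99 ± 0.18 in batch 2 (SD, n = 4) and 1.06 ± 0.21 elsewhere (SD, n = 12), and the 2 sets of libraries did not overlap. TBX3 fell by -0.80 ± 0.06, close to TBX2, and their TPM ratio was 0.84 ± 0.11 in batch 2 and 0.87 ± 0.10 elsewhere. INSM2 rose by 0.63 ± 0.05, less than INSM1. INSM2 was the abundant one of the pair, at 219 ± 17.4 TPM in batch 2 and 136 ± 13.4 TPM elsewhere.

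ISL2 was near its detection limit, with 27 to 45 counts in batch 2 and 0 to 15 elsewhere. GATA4 lay at the threshold, at -0.14 ± 0.06 (edgeR adjusted p = 0.053). It stayed short of a call in 6 of 10 alternative settings and passed in the others, DESeq2 among them (adjusted p = 0.0272). It also stayed short in 9 of 16 edgeR fits that each left out 1 library; it passed, at -0.18 to -0.15, without the library of batch 1, 2 or 3 of FL, batch 3 of NCTAD, batch 3 or 4 of cIDR or batch 4 of WT. Within the GATA pair the ratio of GATA2 to GATA3 in TPM was 9.75 ± 1.50 in batch 2 and 8.28 ± 0.78 elsewhere, and the libraries overlapped. Reads shared between near-identical stretches of paralogues could be split by the counting; how far this applied was not tested. In all, 5 of 8 tested paralogues were called, 3 higher and 2 lower, near the 53.9% of all tested genes (27.7% higher, 26.1% lower).

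**Figure D4:**
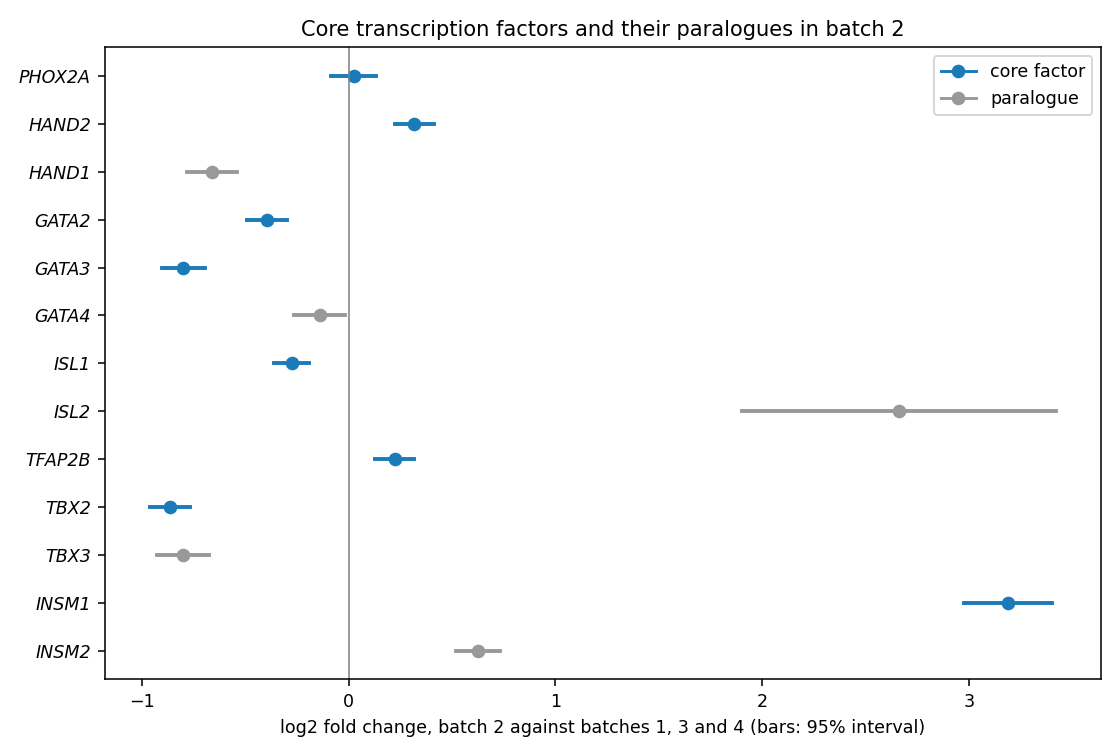
Log2 fold change of batch 2 against batches 1, 3 and 4 (x axis) for the core factors (blue) and 5 of the 8 tested paralogues (grey); bars are 95% intervals. HAND2 and HAND1 lie on opposite sides of 0, TBX2 and TBX3 lie together near -0.8, and INSM1 lies beyond INSM2.

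Of the antisense or divergent transcripts beside the factors, 3 of 5 were called in batch 2, against 53.9% of all tested genes. HAND2-AS1 rose by 0.23 ± 0.05 log2, GATA3-AS1 fell by -0.60 ± 0.11 and TBX2-AS1 fell by -0.58 ± 0.07 (SE, edgeR adjusted p of 0.00185, 0.000267 and 8.28e-06). GATA2-AS1 at 0.04 ± 0.06 and ISL1-DT at 0.06 ± 0.08 did not pass. The library kit marks strand, but whether the counting used strand is not given in the sources used here, so reads of a gene and its antisense partner may not be separated.

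The wider adrenergic set moved both ways in batch 2. Of all tested genes 27.7% rose and 26.1% fell. Of 19 tested further transcription factors, 8 rose and 6 fell, with a median log2 change of 0.09 against 0.03 over all genes. The Krüppel-like factors KLF7 and KLF13 rose by 0.59 ± 0.06 and 0.53 ± 0.07. Of 15 cofactors, 3 rose and 6 fell: ZFPM1, the GATA partner FOG1, fell by -1.27 ± 0.08, KCTD15, an inhibitor of AP-2 factors, fell by -0.59 ± 0.05, and LDB2 and LMO4, of LIM domain complexes, rose by 0.47 ± 0.05 and 0.29 ± 0.07. Of 17 effectors, 9 rose and 7 fell. TH rose by 2.15 ± 0.12, DLK1 by 0.84 ± 0.06 and DBH by 0.69 ± 0.05, whereas SLC6A2, the noradrenaline transporter, fell by -0.81 ± 0.04 and CHGA, a granule protein, by -0.52 ± 0.06.

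Of the remaining marker lists, those of hypoxia and of other cell types moved mostly up in batch 2, and the mesenchymal list moved both ways. Of all tested genes 27.7% rose and 26.1% fell. The part of these lists in the results was not tested. Of 20 hypoxia genes, 18 rose and 0 fell, with a median log2 change of 0.88. Their summed level was 5331 to 6552 TPM in batch 2 against 3201 to 4094 TPM elsewhere. ALDOA, ENO1 and PGK1 made up most of this sum. Their means were 2264, 1706 and 798 TPM in batch 2 and 1654, 1153 and 434 TPM elsewhere. NDRG1 rose by 3.27 ± 0.23, PDK1 by 2.81 ± 0.08 (2.20 on log2(TPM + 1)) and VEGFA by 1.50 ± 0.08. EPAS1 itself did not pass over the 4 groups, at -0.45 ± 0.26 (edgeR adjusted p = 0.165), and this value joins opposite signs: batch 2 differed by 0.93 log2 in WT and by -0.42, -1.30 and -1.24 in FL, NCTAD and cIDR. These differences within groups were not tested; without the WT library of batch 2 the joint value was -0.96 and passed. Of 7 tested markers of fibroblasts, endothelium, leukocytes and epithelium, 6 rose and 0 fell, with a summed level over the list of 10 genes of 108 to 112 TPM in batch 2 against 46.7 to 61.4 TPM elsewhere. LUM rose by 1.45 ± 0.05, DCN by 0.88 ± 0.06 and PDGFRB by 0.73 ± 0.05 log2 (SE). At low counts, VWF rose by 2.03 ± 0.23, CDH5 by 2.22 ± 0.34 and CD14 by 0.49 ± 0.14, the last a call that was lost without the FL library of batch 2 (0.39). On log2(TPM + 1) VWF was at 0.15 and CDH5 at 0.23. Of 15 tested mesenchymal markers, 6 rose and 5 fell, and their sum was 198 to 209 TPM in batch 2 and 166 to 256 TPM elsewhere.

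The genes most like each factor across the 16 libraries were found among 12374 genes as those with the smallest root mean square difference in centred log2 CPM. The points share batches and libraries. Nearest to INSM1 were DDIT4, CHAC1 and AKNA, at differences of 0.30, 0.32 and 0.36 where INSM1 itself varied by 1.38. CHAC1, a stress-induced glutathione-degrading enzyme, averaged 139 ± 4.27 CPM (SD, n = 4) in batch 2 and 10.5 ± 0.95 CPM (SD, n = 12) elsewhere. DDIT4, an mTOR inhibitor induced by stress, averaged 518 ± 49.8 CPM and 72.3 ± 9.96 CPM. Nearest to TBX2 were PLPP5, SLC6A2 and DOK4, at 0.081, 0.081 and 0.099 where TBX2 varied by 0.39. Nearest to GATA3 were FLVCR1, ZBTB2 and MCM4, near GATA2 were CPSF7 and GPATCH1, and nearest to HAND2 were NKX6-1, BCAT2 and ANKRD13B. ISL1 was nearest to MAX, BUB3 and PRMT5, TFAP2B to WDR26, KLHDC10 and SIN3A, and PHOX2A to KCTD10, EDC3 and ACTN1.

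On GRCh38, GENCODE 29 places PHOX2A at chr11:72239077-72245664, HAND2 at chr4:173524969-173530229 and GATA2 at chr3:128479427-128493185, all on the minus strand. On the plus strand lie GATA3 at chr10:8045378-8075203, ISL1 at chr5:51383391-51394738, TFAP2B at chr6:50818723-50847613, TBX2 at chr17:61399896-61409466 and INSM1 at chr20:20368121-20370949. All 8 are protein-coding.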

How the data were processed

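A stranded kit with poly(A) selection was used on about 250 ng of RNA, followed by 13 cycles of PCR, per the labels' protocols. The submitters' processing notes name fastp, STAR, Salmon, featureCounts and GRCh38, without versions. The authors deposited expected counts per gene, not scaled to depth, and TPM; 15.5% of the deposited estimated counts were not whole and were rounded here. Genes were filtered with filterByExpr by group and tested with edgeR 4.0.16 (quasi-likelihood, TMM) in R 4.3.3, 1 model over 16 libraries, with Benjamini-Hochberg adjustment over 19530 genes and calls at 0.05. The SE is the log2 fold change over the square root of F. DESeq2 1.42.0 and limma 3.58.1 (on log2 TPM with a pseudocount of 1 or 0.1) were alternatives. Scripts were tested on simulated data.

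The labels state replicate numbers as batches, so numbers pair libraries: deviations from group means had an average correlation of 0.308 within batches (0.0674 to 0.712) and of -0.0945 between batches. The biological coefficient of variation was 0.245 without and 0.108 with the replicate block. No 2 libraries of a group were copies (chi-square per degree of freedom at least 6.96). Members, gene lists, rules and tests were chosen with earlier results of these data known. The rule named all 8 factors, for each the comparison with the smallest p and the batch 2 contrast, list genes, and the 3 most alike genes with a mean log2 CPM of at least 1. Plots used Python 3.11.15 and matplotlib 3.10.9. Some results these rules select are not reported here.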

Additional observations from a re-analysis of the deposited data

Results flagged for a closer look

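In 7 of 32 sets of 4 libraries (8 factors in 4 groups), 1 library lay far from the other 3, all 7 in batch 2; chance alone gives such a gap in about 1 in 20 sets. The sets share the same 4 batches and are not independent, and over all tested genes 29% had the 4 libraries of batch 2 wholly apart from the other 12. The gap to the nearest library as a share of the range was 0.976 for INSM1 in WT and 0.958, 0.980 and 0.980 in FL, NCTAD and cIDR, each the highest library of its group. The lowest library stood apart for GATA2 in NCTAD (share 0.844), for ISL1 in FL (share 0.884) and for TBX2 in cIDR (share 0.849). ISL1 in that FL library was at 73.0 CPM against 88.1 to 90.0 CPM in the other 3, and TBX2 in that cIDR library at 122 CPM against 207 to 223 CPM.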

How the results depend on the processing

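In every alternative run, 0 factors were called between groups (of 8, or of 7 in DESeq2 without the block, which gave INSM1 no p-value), and the 7 factors called in batch 2 kept direction and call in that contrast. Counts of all called genes moved. The batch as a replicate block gave 20 in FL against WT, 89 in NCTAD against WT, 95 in cIDR against WT, 6 in cIDR against FL, 1 in cIDR against NCTAD and 83 in any group; without batch 2 as well, it gave 16, 62 and 46 against WT, 5 in NCTAD against FL, 10 in cIDR against FL and 51 in any group. DESeq2 gave 11, 17 and 8 against WT, 2 in NCTAD against FL, 3 in cIDR against NCTAD and 22 in any group; with the block it gave 58, 168 and 156 against WT, 12, 46 and 21 among constructs and 190 in any group. Without batch 2 there were 10, 39 and 33 against WT, 5 in cIDR against FL and 35 in any group. At least 10 counts in every library gave 1, 3 and 1 against WT and 1 in any group. With log2(TPM + 1) 1 gene was called in FL and 1 in NCTAD against WT, with log2(TPM + 0.1) 2 in NCTAD against WT and 6850 between batches, and with only the 8 libraries 1 in cIDR against WT. Leaving out each library gave 2 to 4 in NCTAD against WT and 2 to 4 in any group. Near-0 values changed sign: on log2(TPM + 1) and log2(TPM + 0.1) HAND2 in cIDR against WT was -0.0094 in both, PHOX2A in cIDR against WT -0.011 and -0.012, and PHOX2A in batch 2 -0.0085 in both; without batch 4 the last was -0.0079. With each library left out, GATA2 in cIDR against NCTAD ran from -0.19 to 0.0093, GATA3 from -0.071 to 0.25, HAND2 in cIDR against WT from -0.046 to 0.15, PHOX2A from -0.0080 to 0.074, INSM1 in FL against WT from -1.27 to 1.65 and TBX2 in NCTAD against WT from -0.29 to 0.066. The causes of these changes were not tested.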
